A study of Mus musculus with 6 samples.

Results

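A set of 10 genes that mark or direct the glial lineage of peripheral ganglia was followed through 6 single-cell libraries: *Sox2*, *Sox10* and *Foxd3*, the receptor genes *Erbb2* and *Erbb3*, their ligand gene *Nrg1*, the Schwann cell regulators *Egr2* and *Pou3f1*, and the glial markers *S100b* and *Fabp7*. They were taken by symbol, and all 10 of 10 were found among the 32285 genes of the matrices. Every library came from whole ganglia of mice of both sexes at postnatal day 5 that carried a Cre recombinase transgene and a red reporter switched on by it. No group lacked the transgenes, and no sorting on the reporter was described. The ganglia were the stellate and the lumbar chain (paravertebral sympathetic), the coeliac (prevertebral sympathetic), the sphenopalatine (parasympathetic) and the pelvic. Round 1 of sequencing, with an older droplet chemistry, held the stellate, the sphenopalatine and the library called pelvic_1. Round 2, with a newer one, held the coeliac, the lumbar and pelvic_2. Only the pelvic ganglion had 2 libraries, the nerves leaving the ganglia had been cut off, and the number of pups behind a library was not used here.

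The glia of autonomic ganglia are satellite cells, which wrap neuronal cell bodies, and Schwann cells, which accompany or myelinate axons. Both come from the neural crest. SOX10 is required to make them, and FOXD3 and SOX2 are factors of crest cells and of glia that have not matured. Glia survive and divide in response to neuregulin 1, a growth factor made by neurons and displayed on axons, which binds ERBB3. ERBB3 has little kinase activity of its own and signals paired with ERBB2. On large axons this signal leads to myelination through POU3F1 (also called OCT6 or SCIP) and then EGR2 (KROX20). S100B is a calcium binding protein and FABP7 a carrier of fatty acids, and both are used as glial markers.

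Of 21442 retained cells, 8452 were classed as glia from 4 glial genes, among them *Ttyh1*, *Cryab* and *Mal*, and 7069 as neurons from *Stmn2*, *Stmn3*, *Gap43* and *Tubb3*. No member was used for this, but neurons were required to be low in the 4 glial genes, which lowers any gene that accompanies them. Libraries held between 574 and 2867 glia and between 237 and 2729 neurons. Median depth per glial cell was 3514 to 4726.5 unique molecular identifiers (UMIs) in round 1 and 10467 to 12151 in round 2, and per neuron it was 26625 to 39524.5 and 56713 to 108598. A neuron was called noradrenergic where its UMIs of *Th* and *Dbh* outnumbered those of *Chat*, *Slc18a3* and *Slc5a7*. It was called cholinergic in the reverse case, and no minimum count was set. Of the cell barcodes, 122 were shared by a pair of libraries, 49 of them by the stellate and the sphenopalatine. Of the genes that chose the cells, *Ttyh1* was at 433 to 748 CPM in glia against 2.06 to 13.2 CPM in neurons, and *Mal*, a gene of myelin membranes, at 429 to 1147 CPM against 1.78 to 8.78 CPM. CPM is the usual scaling of a gene's count to a fixed total, applied here to the UMIs summed over the cells of a class in a library. Levels were not compared between genes.

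The starts of 6 members (*Sox2*, *Foxd3*, *Erbb2*, *Egr2*, *S100b* and *Fabp7*) had an upstream sequence in RefSeq, while *Sox10*, *Erbb3*, *Nrg1* and *Pou3f1* had no entry. The 250 bases before the start nearest to the annotated one are shown for 3 genes, *Sox2* because it held a searched motif, *S100b* because its level in neurons set it apart, and *Fabp7* because it marked one end of the glial clusters described below. All 3 are on the plus strand of GRCm38.p6, at chr3:34649745-34649994, chr10:76253586-76253835 and chr10:57784673-57784922 respectively, written 5′ to 3′ with motif letters in capitals.
Sox2: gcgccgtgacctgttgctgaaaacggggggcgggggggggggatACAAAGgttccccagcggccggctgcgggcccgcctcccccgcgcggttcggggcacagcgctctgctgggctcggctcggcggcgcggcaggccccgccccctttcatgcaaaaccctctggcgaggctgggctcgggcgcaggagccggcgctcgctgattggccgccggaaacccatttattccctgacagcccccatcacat
S100b: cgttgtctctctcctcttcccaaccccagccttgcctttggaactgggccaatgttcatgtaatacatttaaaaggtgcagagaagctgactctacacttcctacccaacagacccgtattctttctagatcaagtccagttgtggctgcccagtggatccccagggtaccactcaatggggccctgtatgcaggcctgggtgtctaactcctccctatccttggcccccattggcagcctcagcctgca
Fabp7: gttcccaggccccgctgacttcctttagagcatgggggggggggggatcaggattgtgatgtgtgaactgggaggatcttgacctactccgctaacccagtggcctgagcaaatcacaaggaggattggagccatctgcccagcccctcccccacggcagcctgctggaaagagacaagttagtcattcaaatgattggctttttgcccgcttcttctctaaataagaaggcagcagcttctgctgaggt

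These windows were searched on both strands for the octamer bound by POU factors, ATGCAAAT, and for forms of the SOX motif, which were ACAAAG in the first search, ACAATG in the next search and AACAAT in the last. The only match in the 6 windows was ACAAAG in that of *Sox2*, with its first base at -206 from the listed start. That listed start lay at -410 from the annotated start of *Sox2*, so the window is not the sequence directly before the latter. For the other windows this distance was -17 to 42. Of 32851 promoter windows of the same length, 1.60% held the octamer and 16.5%, 10.7% and 9.42% those forms of the SOX motif in the order given. *Egr2* had 5 listed starts, and the outcome depended on which was taken. The window nearest to the annotated start held no match, whereas 3 of the 5 held the octamer. That comparison of starts was made after one such match had been seen. These are matches of letters, and binding was not measured.

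*Sox10*, on chromosome 15 (GRCm38, 79154908 to 79165240), was found in glia of every library and hardly elsewhere. Its level in glia was 210.5 CPM in the stellate, 267 in the sphenopalatine and 238 in pelvic_1, then 323 in the coeliac, 295 in the lumbar and 288 in pelvic_2. The libraries of round 2 were all above those of round 1. In neurons it was 0.827 to 5.00 CPM.

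*Sox2*, on chromosome 3 (34650405 to 34652461), lies within the noncoding gene *Sox2ot* on the same strand without sharing an exon. In glia it reached 61.3 CPM in the stellate, 56.2 in the sphenopalatine and 82.5 in pelvic_1, against 171 in the coeliac, 182 in the lumbar and 161 in pelvic_2. The rounds did not overlap. The 3 libraries of round 2 lay close together.

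*Foxd3*, on chromosome 4 (99656299 to 99658622), shares an exon with the small gene *Gm23366*, so that its counts are uncertain. It was at 38.2 CPM in stellate glia, 58.6 in sphenopalatine and 83.8 in pelvic_1. In round 2 it was at 486 CPM in the coeliac, 423 in the lumbar and 479 in pelvic_2. The pelvic ganglion, sampled in both rounds, thus spanned nearly the whole range.

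*Erbb3*, on chromosome 10 (128567523 to 128589652), was detected in glia at 121.5 CPM in the stellate, 111 in the sphenopalatine and 129 in pelvic_1, then at 253, 247 and 259 CPM in the coeliac, the lumbar and pelvic_2. Again the rounds separated and the ganglia of a round did not. *Erbb2*, its partner, on chromosome 11 (98412470 to 98437716), varied less, from 19.7 to 20.5 CPM in round 1 and from 27.6 to 28.4 CPM in round 2.

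*Nrg1*, on chromosome 8 (31814551 to 32884029), had the opposite distribution. In neurons it was at 16.7 CPM in the stellate, 22.8 in the sphenopalatine, 21.0 in pelvic_1, 25.4 in the coeliac, 20.2 in the lumbar and 23.9 in pelvic_2. A UMI was found in 34.6% to 65.8% of neurons. In glia it was at 0.546 to 2.80 CPM, with a UMI in 0.697% to 1.05% of cells. Median depth per cell was higher in neurons than in glia of every library, and greater depth raises such a share. After thinning every cell to 2000 UMIs, a UMI of *Nrg1* was found in 2.96% to 5.05% of neurons and 0% to 0.453% of glia.

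The low level of *Nrg1* in glia was set beside that of the neuronal gene *Stmn2*. *Nrg1* in glia was at 2.28% to 16.7% of its level in the neurons of the same library, while *Stmn2* was at 3.00% to 18.6%, and for both the highest value was that of the stellate and the lowest that of pelvic_2. In cholinergic and noradrenergic neurons *Nrg1* was at 12.8 and 16.7 CPM in the stellate, 22.9 and 15.2 in the sphenopalatine and 42.3 and 19.5 in the lumbar, with only 7, 37 and 23 cells in the smaller class. It was at 21.6 and 17.7 CPM in pelvic_1 and at 23.6 and 27.1 CPM in pelvic_2. The cholinergic level was the higher in 3 of 5 libraries, and the difference was not tested. In the stellate the 12.8 CPM was 3 UMIs in 7 cells, so that no direction can be read there. The *Nrg1* level of noradrenergic neurons was 0.820 times that of cholinergic neurons in pelvic_1 and 1.15 times in pelvic_2. These levels came from 142 noradrenergic and 742 cholinergic cells in pelvic_1, and from 33 and 335 in pelvic_2.

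*Egr2*, on chromosome 10 (67535475 to 67542188), was at 62.0 CPM in stellate glia, 116 in sphenopalatine, 104 in pelvic_1, 88.5 in coeliac, 98.8 in lumbar and 103 in pelvic_2. The stellate was lowest and the rounds overlapped. *Pou3f1*, on chromosome 4 (124656807 to 124660655), ranged much more widely, from 1.72 CPM in the stellate and 12.1 in the sphenopalatine to 52.6 in pelvic_1, and from 30.7 in the coeliac and 19.9 in the lumbar to 75.8 in pelvic_2. In each round the pelvic library was the highest.

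*S100b*, on chromosome 10 (76253853 to 76261159), was at 69.5 CPM in stellate glia and between 110 and 161 CPM in the other 5 libraries. *Fabp7*, on chromosome 10 (57784881 to 57788450), was at 7744 CPM in stellate glia, 8397 in sphenopalatine and 3901 in pelvic_1, and at 4640, 6478 and 3562 CPM in coeliac, lumbar and pelvic_2 glia. The pelvic library was the lowest of each round. *Erbb2*, *Nrg1*, *Pou3f1* and *S100b* overlap genes of the opposite strand, and since the strand setting of the counting is not given in the sources used here, their counts could include such reads.

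**Figure D1:**
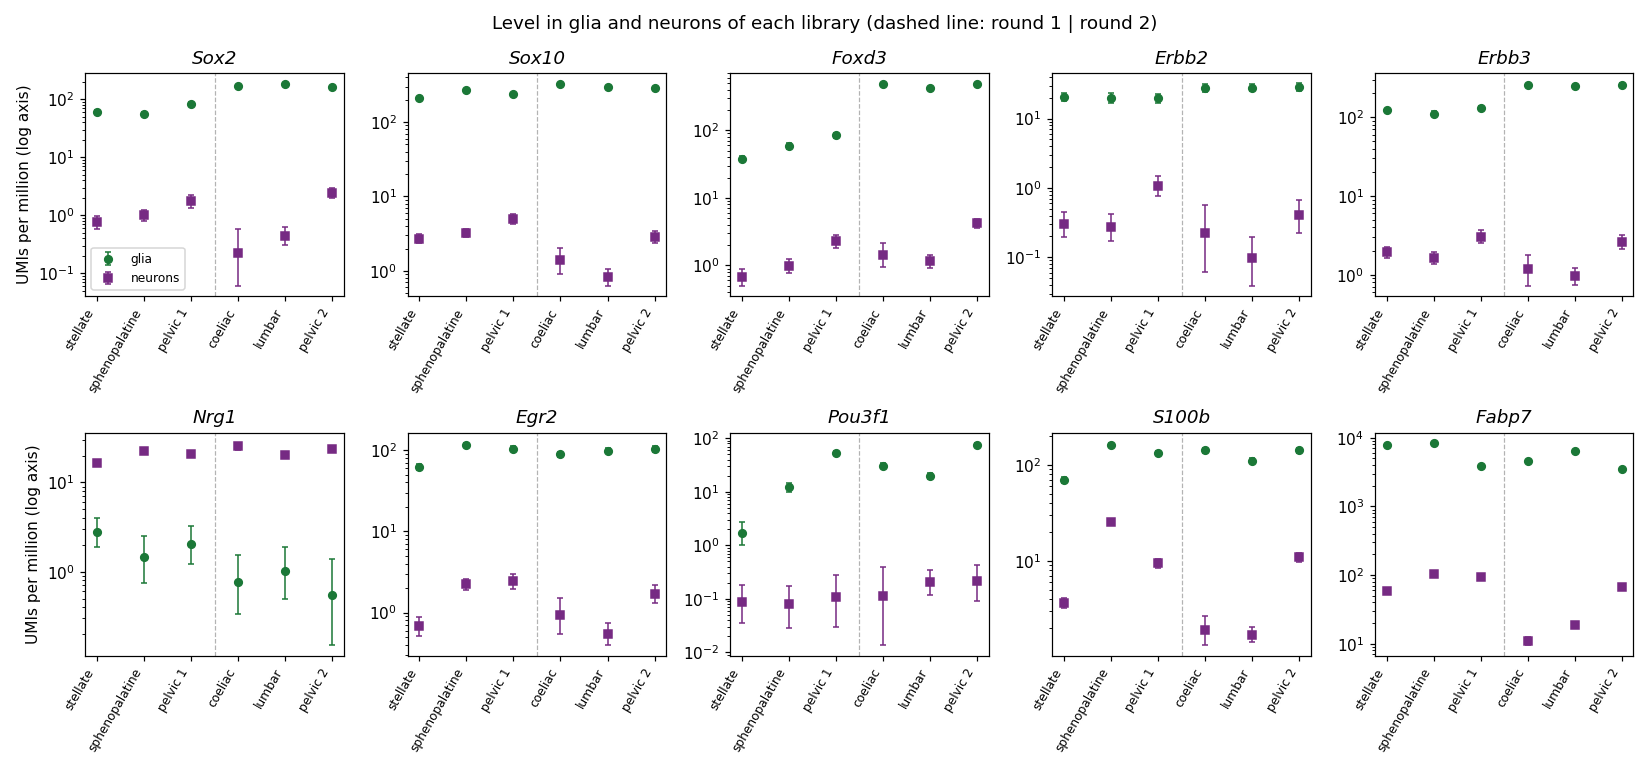
Level of each gene in glia (green circles) and neurons (purple squares) of the 6 libraries, in CPM on a log axis, with exact Poisson intervals at 95% that cover counting error only; the dashed line separates round 1 from round 2. *Nrg1* alone is higher in neurons, at 16.7 to 25.4 CPM against 0.546 to 2.80 CPM in glia.

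Of the members, 9 were higher in glia than in neurons and *Nrg1* was lower (edgeR quasi-likelihood test on 6 pairs of sums, with the library as a block). This should be read against the fact that 38% of 15579 genes were higher and 37.2% lower in this comparison. *Pou3f1* differed by 7.23 ± 0.53 (log2 fold change ± SE; adjusted p = 8.1e-06), *Sox10* by 6.72 ± 0.46 (adjusted p = 6.0e-06) and *Erbb3* by 6.51 ± 0.44 (adjusted p = 5.6e-06). *Sox2*, *Foxd3* and *Fabp7* lay between 6.63 and 6.84, and *Egr2* and *Erbb2* at 6.14 and 6.04. *S100b* had the smallest difference of the 9, 4.29 ± 0.53 (adjusted p = 1.4e-04). *Nrg1* differed by -4.02 ± 0.34 (adjusted p = 1.7e-05), or 16.2-fold. The direction of each gene was the same in 6 of 6 libraries.

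**Figure D2:**
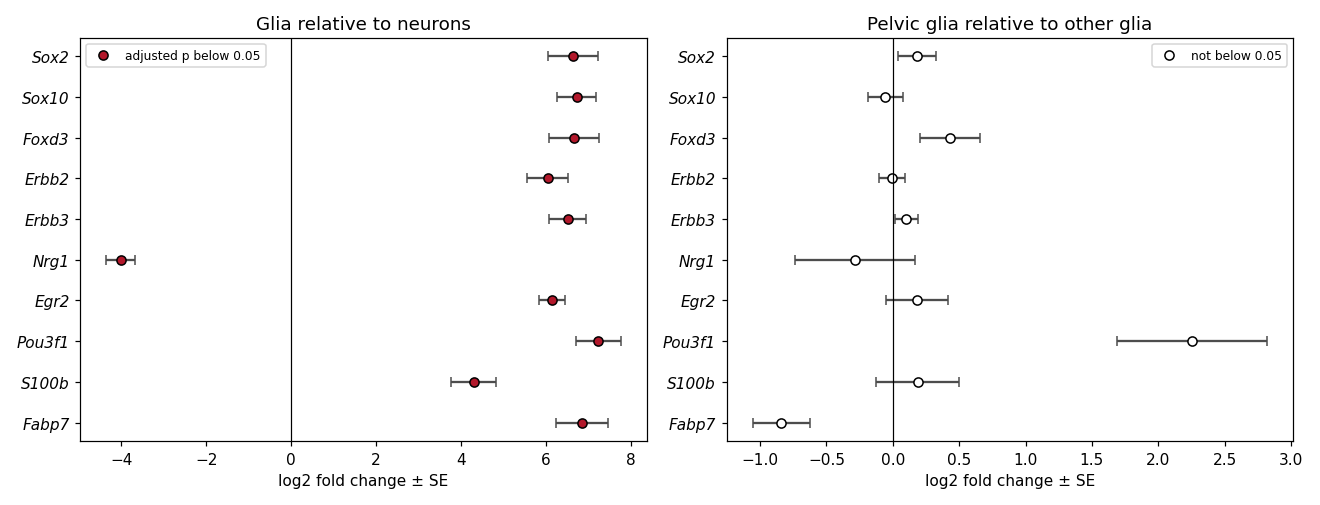
Log2 fold change with its SE for each gene, in glia relative to neurons (left) and in pelvic glia relative to glia of the other ganglia (right); filled points have an adjusted p below 0.05. On the left 9 genes lie between 4.29 and 7.23 and *Nrg1* at -4.02, while on the right no gene is called and *Pou3f1* lies at 2.26 and *Fabp7* at -0.84.

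The rest of the neuregulin pathway was divided. Of 30 listed genes 28 were tested, and 8 were higher in glia, 16 were lower and 4 were not called. Over all genes 38% were higher and 37.2% lower. The median log2 fold change of the listed genes was -0.70, against 0.02 over all genes. *Lrig1*, a membrane inhibitor of ERBB receptors, was higher by 5.05, *Adam17*, a protease that sheds growth factors, by 3.62, and the ligand gene *Hbegf* by 3.42. The neuregulin genes *Nrg3*, *Nrg2* and *Nrg4* were lower in glia, at -3.74, -3.16 and -2.57. *Egfr* was higher by 1.69 but was at 0.308 to 4.82 CPM in glia, far below the 62.7 to 130 CPM of fibroblast-like cells. *Erbb4*, the other neuregulin receptor, was at 0.181 to 0.362 CPM in glia and was too low to be tested.

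Among other transcription factors of the glial lineage 24 of 35 tested were higher in glia, 6 were lower and 5 were not called. Over all genes tested, 38% were higher and 37.2% lower. The median log2 fold change of these factors was 2.33, against 0.02 over all genes. *Nfix* was higher by 5.81, *Tfap2a*, a factor of early crest cells, by 5.61, and *Hes5*, a target of Notch signalling, by 5.58. *Sox9* was not called (adjusted p = 0.14). It was at 2.08 to 3.55 CPM in glia and 39.5 to 167 CPM in fibroblast-like cells. Of 10 relatives of the calcium and fatty acid binding genes 6 were higher, among them *S100a16* by 6.09, and 4 were lower, among them *Fabp3* at -3.41. These counts were not tested against the shares over all genes. All 15 of 15 myelin genes were higher, with a median of 4.55.

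Outside glia and neurons most members fell into a restricted and a shared set. *Sox2*, *Sox10*, *Foxd3* and *Erbb3* were at most 6.93 CPM in any fibroblast-like, endothelial-like, mural-like or macrophage-like class of any library. *Erbb2* was instead at 15.7 to 22.6 CPM in fibroblast-like and 9.06 to 13.2 CPM in endothelial-like cells. *Egr2* was at 33.0 to 110 CPM in fibroblast-like and 24.5 to 65.8 CPM in macrophage-like cells, as well as at 105, 146 and 114 CPM in the 140, 9 and 33 chromaffin-like cells of pelvic_1, the coeliac and pelvic_2. *S100b* was at 14.0 to 97.6 CPM in fibroblast-like cells. *Pou3f1* varied between libraries, at 0% to 65.4% of its glial level in mural-like cells (median 28.9%). In fibroblast-like cells it was at 0% to 26.0% (median 7.09%).

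**Figure D3:**
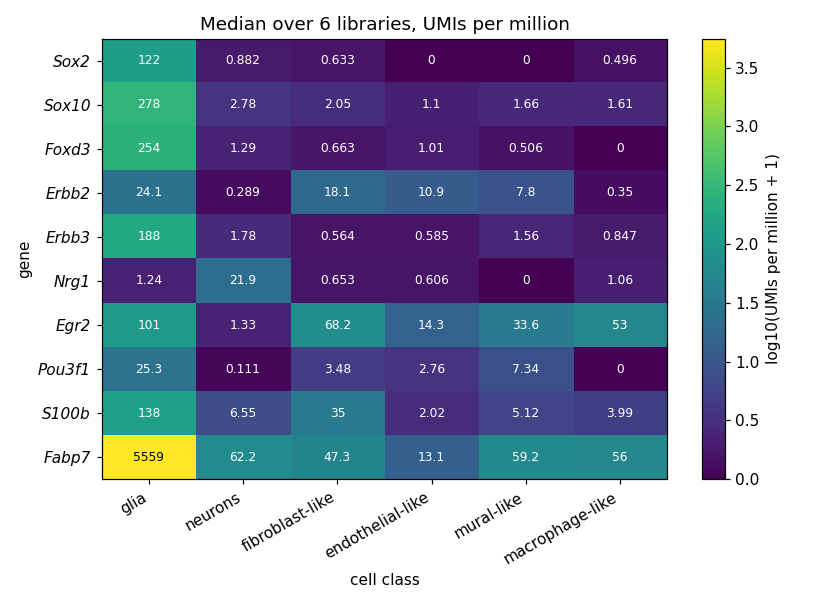
Median level over the 6 libraries of each gene (rows) in each cell class (columns), in CPM, printed in the cells and coloured as log10 of the level plus 1. *Sox10* falls from 278 CPM in glia to at most 2.78 CPM in the other classes, whereas *Egr2* is at 101 CPM in glia and 68.2 CPM in fibroblast-like cells.

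In neurons, most glial genes were found at a low share of their glial level, which varied between libraries. Of the genes that defined glia, *Ttyh1* in neurons was at 0.328% to 3.05% of its level in the glia of the same library (median 1.38%), *Cryab* at 0.411% to 1.48% (median 0.913%) and *Mal* at 0.220% to 1.26% (median 0.745%). Neurons were required to be low in these genes, which lowers their shares. *Sox2*, *Sox10*, *Foxd3*, *Erbb2*, *Erbb3*, *Egr2*, *Pou3f1* and *Fabp7* had medians between 0.507% and 1.40%. The share of *Sox2* ran from 0.130% in the coeliac to 2.10% in pelvic_1, and that of *Fabp7* from 0.235% in the coeliac to 2.39% in pelvic_1. *Erbb2* in pelvic_1 (5.43%) and *Pou3f1* in the stellate (5.13%) stood above the others, the latter against a glial level of only 1.72 CPM.

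*S100b* did not follow this share. Its level in neurons was 25.4 CPM in the sphenopalatine, 9.48 in pelvic_1 and 10.8 in pelvic_2, against 3.63 in the stellate, 1.89 in the coeliac and 1.69 in the lumbar. The sphenopalatine and both pelvic libraries were above the 3 sympathetic ones. These levels were 15.7%, 7.11% and 7.59% of the glial level of their library, and 1.33% to 5.22% in the sympathetic ganglia. This order was not particular to *S100b*, since the shares of *Sox2*, *Egr2*, *Fabp7* and *Ttyh1* had it too. *Fabp7* was at 1.23%, 2.39% and 1.87%, against 0.235% to 0.747% in the sympathetic ganglia. The shares of *Sox10*, *Foxd3*, *Erbb2*, *Erbb3*, *Pou3f1*, *Cryab* and *Mal* did not have it. Endothelial-like cells, which share the free RNA of the suspension, had *S100b* at 5.29 CPM in the sphenopalatine, 2.87 in pelvic_1 and 1.91 in pelvic_2. Other classes that share it varied. In the same order, mural-like cells were at 10.5%, 6.92% and 2.84% of the glial level and macrophage-like cells at 2.78%, 2.40% and 4.17%. Fibroblast-like cells were at 60.5%, 47.7% and 29.7%. The part of free RNA in the neuronal level was not tested. A UMI was found in 42.4% of sphenopalatine neurons (median depth 38061 UMIs) and in 5.43% of endothelial-like cells (13206 UMIs). After thinning every cell to 2000 UMIs the shares were 4.85% and 0%, the latter with a Wilson interval at 95% that reaches 2.89% and covers counting error only.

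Within the pelvic ganglion *S100b* was at 10.3 CPM in cholinergic and 4.96 CPM in noradrenergic neurons of pelvic_1, and at 11.5 and 5.48 CPM in those of pelvic_2. In the lumbar chain 23 cholinergic neurons had 19.8 CPM and 904 noradrenergic neurons 1.11 CPM. In the sphenopalatine the values were 25.4 and 18.8 CPM, the latter from 37 cells. The study describes parasympathetic neurons as all cholinergic, and whether these 37 cells were noradrenergic was not tested. In the stellate 2720 noradrenergic neurons had 3.61 CPM, while the 7 cholinergic neurons held no UMI of *S100b*, which at their depth allows up to 12.8 CPM (3 UMIs, counting error only), so that no direction can be read. In means of the 2 pelvic libraries other members were also higher in cholinergic than in noradrenergic neurons. *Fabp7* was at 83.6 against 54.7 CPM, *Sox2* at 2.21 against 1.18 and *Erbb3* at 3.00 against 1.71. *Egr2* was at 2.18 against 1.32 CPM and *Sox10* at 4.04 against 3.25. *Foxd3* and *Erbb2* went the other way, at 3.24 against 3.41 CPM and 0.715 against 0.923 CPM. With 1 library for most ganglia these differences were not tested.

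**Figure D4:**
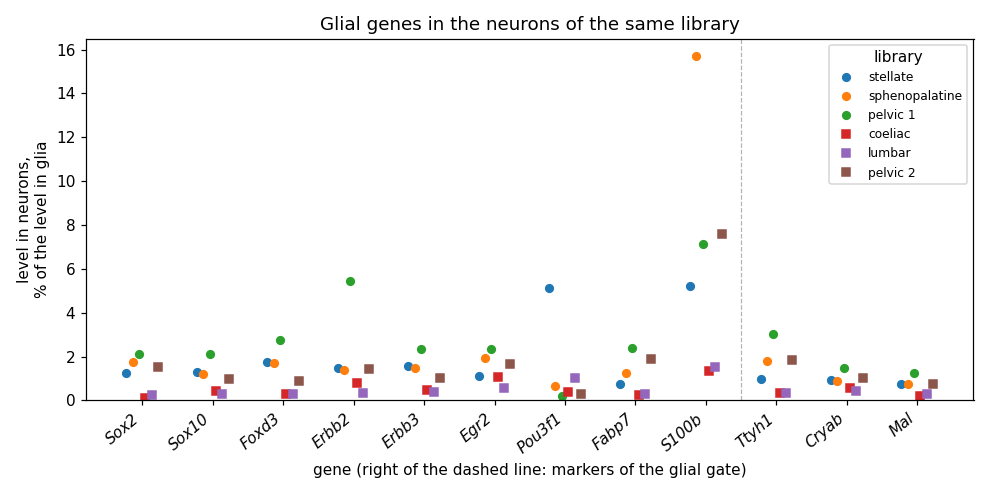
Level of glial genes in neurons as a percentage of their level in the glia of the same library, for 9 members and, right of the dashed line, 3 of the 4 genes that defined glia; circles are round 1 and squares round 2. *S100b* reaches 15.7% in the sphenopalatine and 7.59% in pelvic_2, while *Ttyh1* lies between 0.328% and 3.05%. Neurons were required to be low in the genes that defined glia, which lowers their percentages.

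Glia were not uniform. Clusters made in each library without the members were of cycling glia, of glia rich in *Apoe* and of glia rich in *Kcna1*, a potassium channel gene. In the stellate, the coeliac and pelvic_2 a further 1101, 138 and 38 cells were in clusters rich in neither, and 3 libraries had a small cluster with the markers of myelinating Schwann cells. *Apoe*-rich clusters were those with *Apoe* above and *Kcna1* below the level of all glia of the library. Their *Apoe* exceeded that level by only 0.13 to 0.85 on the log2 scale. A stellate cluster of 1012 cells, rich in neither, was below it for both, at -2.21 for *Kcna1* and -0.22 for *Apoe*. The division by *Apoe* and *Kcna1* was chosen after the clusters and their values had been seen. What follows is a description without a test, and its counts of libraries are no independent support. *Kcna1*-rich clusters held between 14.0 and 35.7 cells per 100 gated glia.

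*Pou3f1* was higher in *Kcna1*-rich than in *Apoe*-rich clusters in 6 of 6 libraries. It was at 10.8, 26.4 and 106.5 CPM in *Kcna1*-rich clusters of the stellate, the sphenopalatine and pelvic_1, and at 110, 73.4 and 112 CPM in those of the coeliac, the lumbar and pelvic_2. In *Apoe*-rich clusters it was at 0, 0.568, 4.62, 5.20, 4.34 and 10.9 CPM in the same order. The groups overlapped only in that the stellate value of the former, 10.8, was just under the pelvic_2 value of the latter.

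*Egr2* and *S100b* were also higher in *Kcna1*-rich clusters in 6 of 6 libraries, by 1.13 to 3.69 times and by 1.37 to 2.17 times. *Fabp7* was lower in 6 of 6, at 0.107 to 0.233 of its level in *Apoe*-rich clusters. *Sox10*, *Erbb2* and *Erbb3* differed little, with median ratios of 1.13, 1.09 and 1.05. *Sox2* was lower in *Kcna1*-rich clusters in 5 of 6 libraries, with a median ratio of 0.862. In cycling glia *Fabp7* was at 0.499 to 0.620 of its level in *Apoe*-rich clusters in 6 of 6 libraries.

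Myelinating Schwann-like clusters comprised 19 cells in the sphenopalatine, 34 in pelvic_1 and 8 in pelvic_2. *Pou3f1* was at 353, 792 and 1493 CPM in them, 15.1 to 29.3 times the level of all glia of the library. *Egr2* was at 305, 271 and 181 CPM, and *S100b* at 353, 251 and 328 CPM. *Fabp7* fell to 72.2, 15.9 and 33.5 CPM, from 9, 4 and 5 UMIs. *Sox10*, *Foxd3* and *Erbb3* were below the level of all glia in 3 of 3 libraries, with median ratios of 0.701, 0.548 and 0.585. Most of the 8 cells of pelvic_2 were also called doublets.

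**Figure D5:**
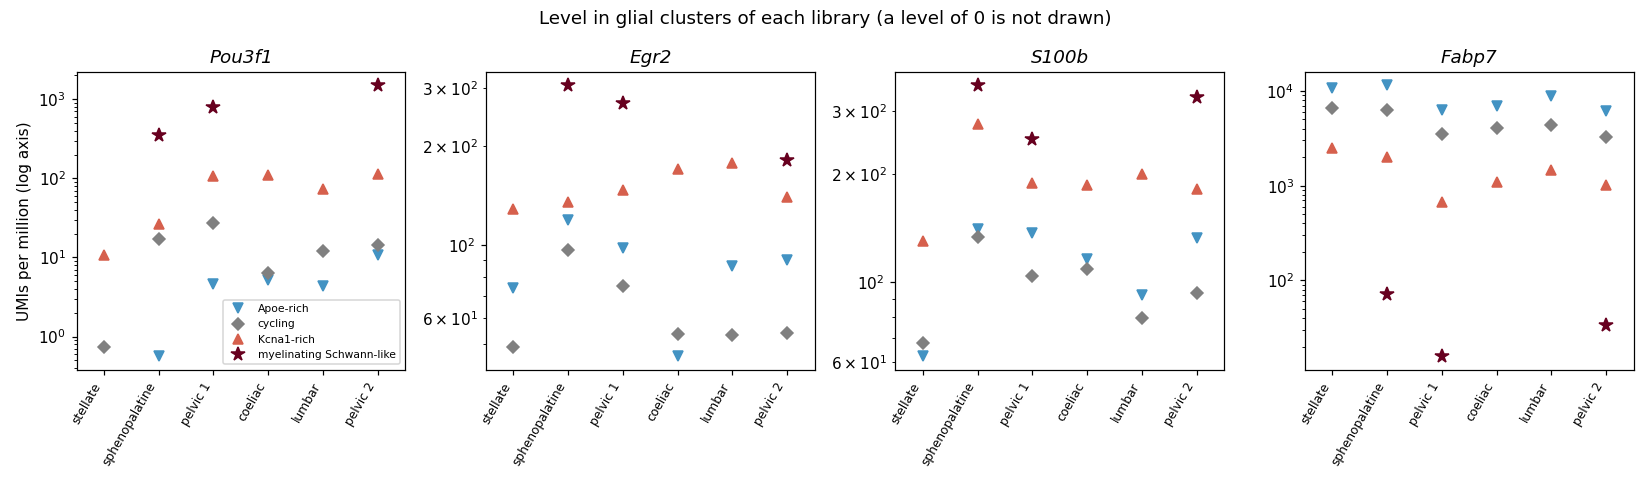
Level of 4 genes in the glial clusters of each library, in CPM on a log axis; a level of 0 is not drawn. *Pou3f1* rises from *Apoe*-rich (0 to 10.9 CPM) to *Kcna1*-rich (10.8 to 112 CPM) and myelinating Schwann-like clusters (353 to 1493 CPM), and *Fabp7* runs the other way.

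The pelvic ganglion was compared with the other 4 ganglia as one group, with the round as a covariate. In glia none of the 10 members was called, where 0.0289% of 13846 genes (4 genes) were higher and 0 were lower. At an unadjusted p under 0.05, 1428 genes passed. *Pou3f1* had a log2 fold change of 2.26 ± 0.57 (edgeR, adjusted p = 0.24) and *Fabp7* one of -0.84 ± 0.22 (edgeR, adjusted p = 0.25). The other 8 lay between -0.28 and 0.43. DESeq2 called 1 member lower, where 88 of 13846 genes were lower. Leaving out the sphenopalatine library called 1 member higher, where 231 of 13747 genes were. Of the listed genes tested in pelvic glia, none of 25 of the neuregulin pathway, 33 transcription factors, 10 binding protein genes and 15 myelin genes was called, and the medians of these lists were 0.11, 0.09, -0.19 and 1.06 on the log2 scale.

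Set only against the other 2 libraries of its round, the pelvic library was highest in both rounds for *Pou3f1* and *Erbb3*, and lowest in both for *Fabp7*. Of all genes tested, 16.2% were highest and 13.9% lowest in this way, so that 2 and 1 of 10 members are near the background. *Kcna1*-rich clusters also had their largest share in the pelvic library of each round. They were at 23.7 cells per 100 gated glia in pelvic_1 against 14.0 and 20.4, and at 35.7 in pelvic_2 against 27.6 and 24.9. Their part in the result was not tested. Without the myelinating Schwann-like and cycling clusters *Pou3f1* was at 31.2 CPM in pelvic_1 against 2.04 and 5.82 CPM, and at 51.8 CPM in pelvic_2 against 34.6 and 21.3 CPM.

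In neurons no member was called either, where 0.308% of 16571 genes were higher (51 genes), 0.0664% were lower (11 genes) and 2422 passed an unadjusted p under 0.05. The log2 fold changes of the members lay between 0.08 and 1.92. That of *S100b*, 1.27, turned to -0.60 without pelvic_2 and to -0.01 after thinning, and that of *Fabp7*, 1.30, ran from 0.21 without pelvic_2 to 2.20 without pelvic_1. DESeq2 called 4 members higher, where 748 of 16571 genes were higher. Without the sphenopalatine 8 members were called higher, where 1653 of 15693 genes were. In both rounds 7 members were highest in pelvic neurons, against 17.0% of all genes, and none was lowest in both, against 19.4%. The 7 were *Sox2*, *Sox10*, *Foxd3*, *Erbb2*, *Erbb3*, *Egr2* and *Pou3f1*. Of these, *Erbb2* and *Pou3f1* were at a mean of only 0.736 and 0.162 CPM in pelvic neurons. The glial markers *Ttyh1*, *Cryab* and *Mal* were highest there too. *Ttyh1* was at 13.2 CPM in pelvic_1 against 4.17 and 9.62, and at 12.6 in pelvic_2 against 2.06 and 2.49. *Cryab* was at 20.9 CPM against 11.8 and 12.7, and at 9.50 against 4.39 and 3.35, and *Mal* was at 7.86 CPM against 3.21 and 5.32, and at 8.78 against 1.78 and 2.41. Their part in the result was not tested. Among the listed genes 1 was called in pelvic neurons, *Etv1*, a transcription factor gene, higher by 1.81 (edgeR, adjusted p = 0.016). For the glia-to-neuron fold, no member was called between pelvic and other ganglia, with *Fabp7* at -2.13 ± 0.71, *Pou3f1* at 2.03 ± 0.88 and the other 8 between -1.66 and -0.33 on the log2 scale. Here 0% of 15579 genes were higher, 0.0834% were lower and 1034 genes passed an unadjusted p under 0.05.

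The rounds were compared in glia after their levels had been seen, with the pelvic ganglion as a covariate. *Foxd3* was higher in round 2 by 2.99 ± 0.23 (adjusted p = 1.3e-04), *Sox2* by 1.38 ± 0.14 (adjusted p = 3.0e-04), *Erbb3* by 1.08 ± 0.08 (adjusted p = 1.4e-04) and *Erbb2* by 0.49 ± 0.09 (adjusted p = 0.0041), and *Nrg1* was lower by -1.42 ± 0.42 (adjusted p = 0.025). The genes used to class neurons were also lower in glia of round 2, as a percentage of their level in neurons. *Stmn2* in glia was at 11.8% to 18.6% of its level in neurons in round 1 and 3.00% to 4.42% in round 2, *Gap43* at 9.62% to 17.0% and 3.55% to 5.01%, *Stmn3* at 10.9% to 17.4% and 2.94% to 3.90%, *Tubb3* at 8.77% to 15.2% and 2.88% to 3.87%, and *Nrg1* at 6.34% to 16.7% and 2.28% to 5.08%. Their part in the result was not tested. The call of *Nrg1* was lost when any 1 library but the sphenopalatine was left out (edgeR, adjusted p between 0.0503 and 0.13). These 5 of 10 stand beside 29.8% of genes higher and 25.2% lower. Chemistry, facility, depth and, except for the pelvic, the ganglion differ between the rounds and cannot be told apart. The glia-to-neuron fold of *Foxd3* was also larger in round 2, by 2.33 on the log2 scale (edgeR, adjusted p = 0.045), which made 1 of 10 members where 3.45% of 15579 genes were higher and 3.32% lower. This call was lost when any 1 library but pelvic_2 was left out (edgeR, adjusted p between 0.0559 and 0.14). After thinning to 2000 UMIs a UMI of *Foxd3* was found in 7.32% to 16.03% of glia in round 1 and 54.7% to 59.6% in round 2.

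For each member the genes with the most similar pattern were sought among 11057 genes over 30 sums of cell classes, which share libraries and depth. For *Sox10* they included *Atp10b* and *Fabp7* (Spearman's rho 0.843 and 0.838), for *Fabp7* they were *Acsbg1*, *Kcnj10* and *Sox10* (0.895, 0.842 and 0.838) and for *S100b* they were *Phgdh*, *Myorg* and *Entpd2* (0.943, 0.879 and 0.878). For *Nrg1* they were *Tmub1*, *Ptpn5* and *Slc7a14* (0.917, 0.898 and 0.896), and for *Erbb2* they were *Col27a1*, *Nid2* and *Sh3pxd2a* (0.954, 0.947 and 0.945). For *Pou3f1* they were *Bcl9l*, *Tcf7l1* and *Vim* (0.870, 0.870 and 0.869), and for *Egr2* they were *Mir99ahg*, *Tns3* and *Plin3* (0.915, 0.893 and 0.878). *Sox2*, *Foxd3* and *Erbb3* had closest neighbours at 0.805 (*Luzp2*), 0.807 (*Lmbrd1*) and 0.814 (*Dlgap1*).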

How the data were processed

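The deposited values are UMI counts per gene and droplet, which the authors made with Cell Ranger 6.0.1 on mm10, per the submitters' processing notes, and left unnormalized. Deposited matrices held 39353313 to 113352559 UMIs. A droplet was retained if it held more than 1500 but fewer than 11000 genes, with mitochondrial UMIs making up less than 15%. Neurons had a mean sctransform (0.4.2) value of their markers above 3 and a glial mean below 0.95, the valley of its histogram, and glia were at or above it; 168 cells that passed both were left out. *Fabp7*, a glial marker of the study, was left out of the gate as a member. Each library was clustered alone (scanpy 1.11.5, Leiden resolution 1, members left out), and a class was named when most of its fixed markers were up (written as X-like). Doublets were called from simulated neighbours and removed only as an alternative. Summed counts were tested across libraries with edgeR 4.0.16 (quasi-likelihood, TMM, Benjamini-Hochberg over all genes, called under 0.05), with DESeq2 1.42.0 as an alternative. The procedure was tested on simulated data. Nothing states that libraries are separate animals, so p-values measure the spread between libraries. Positions are from GENCODE M21. Named genes were the 10 members, up to 4 called genes of each list and a few fixed receptors and ligands. The gate markers, the transmitter markers and 3 pattern neighbours per member were also named. Members and lists were chosen with earlier results of these data known. Intervals cover counting error only. One of the 4 genes that defined glia, and the name of the transgenic strain, are not reported here.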

Additional observations from a re-analysis of the deposited data

Results flagged for a closer look

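Of 40 sets of library levels examined (each member in glia and in neurons, over the 6 libraries and over the 4 of the other ganglia), 2 held a library far from the rest, and chance gives about 1 in 20. *S100b* in sphenopalatine neurons, at 25.4 CPM, stood apart from the stellate, coeliac and lumbar neurons. *Erbb2* in the neurons of pelvic_1 was at 1.07 CPM, far from the other 5 libraries.

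The glia-to-neuron fold of *Foxd3* differed between the rounds by a test of the difference itself, being larger in round 2 by 2.33 on the log2 scale (adjusted p = 0.045, edgeR), where 3.45% of genes were called higher. It lost its call in 5 of the 9 alternatives, with adjusted p between 1.8e-04 and 0.14.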

How the results depend on the processing

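The contrast of glia with neurons kept 9 members higher and 1 lower under all 17 alternatives, which changed the scaling, the filter, the tool, the gate, doublets, depth, the round or left out 1 library. No paired analysis between ganglia was possible, because they share only replicate number 1, which names a library. The contrast of glia with neurons was paired within libraries, with the library as its block. With no replicate block 4590 genes were higher and 4693 lower, with 9 and 1 members.

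In pelvic against other glia, 4 genes higher and 0 lower became 112 and 88 with DESeq2, 139 and 75 with no filter, 9 and 1 after thinning, 0 higher without the round, and 1 lower on log counts or without doublets; leaving out a library gave 0 to 231 higher and 0 to 179 lower, both highest without the sphenopalatine. One member was then lower with DESeq2 (1, *Fabp7*), 1 higher (*Pou3f1*) with no filter and 0 to 1 higher when a library was left out. In neurons, 51 higher and 11 lower became 748 and 559 with DESeq2, 78 and 18 without doublets, 18 lower on log counts, and 5 lower with no filter or without the round; leaving out a library gave 0 to 1653 higher and 0 to 1314 lower, and 0 to 8 members higher, against 4 with DESeq2. For the glia-to-neuron fold, pelvic against other, 0 higher and 13 lower became 58 and 167 with DESeq2 and 1 higher with its size factors, and 0 to 30 and 0 to 98 when a library was left out. Between rounds this fold gave 537 higher and 518 lower, 325 higher by total UMIs, 862 and 1285 with DESeq2 and 0 to 959 and 0 to 614 when a library was left out; members higher went from 1 to 4 with DESeq2, where 1 was lower, and were 0 to 5 when a library was left out (0 without the stellate, the sphenopalatine, pelvic_1, the coeliac or the lumbar, 5 without pelvic_2). In glia between rounds, 4 members higher became 4 to 7 and 1 lower became 0 to 1 when a library was left out, the call of *Nrg1* remaining only without the sphenopalatine, and 2 were lower with DESeq2. Over all genes 4120 higher and 3488 lower became 4075 and 3797 without the sphenopalatine, and 3572 and 3356 with DESeq2. The cause was not tested.

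The median share of glia with a UMI fell after thinning to 19.6% for *Sox2*, 42.8% for *Sox10*, 4.66% for *Erbb2*, 32.3% for *Erbb3*, 0.183% for *Nrg1*, 17.1% for *Egr2*, 23.7% for *S100b* and 90.6% for *Fabp7*. At least 2 UMIs were found in 59.1% for *Sox10*, 2.36% for *Erbb2*, 0.0493% for *Nrg1*, 20.1% for *Egr2* and 26.4% for *S100b*; fewer UMIs or a higher minimum lower a share by construction. Levels in glia moved by less than the spread between libraries under the other gates. Myelinating Schwann-like clusters were not named at resolution 0.5. At resolution 2 that of the sphenopalatine had 12 cells in place of 19, with 1 UMI of *Sox2* in place of 6 and 1 of *Foxd3* in place of 4. Depth per glial cell differs between rounds, so shares were not compared across rounds without thinning, and a count of 0 allows 3 UMIs.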
